A study of Homo sapiens with 7 samples.

Results

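The 10 genes described here belong to the YAP-TEAD arm of the Hippo pathway: YAP1, WWTR1, TEAD1, TEAD3 and TEAD4 of the transcription machinery, and CCN1, CCN2, AMOTL2, ANKRD1 and AXL of its targets. They were picked by name, with earlier results of these data known, from the 20033 protein-coding genes of GENCODE release 44. Each gene was given a window made of its gene record and 50 kb either side, and the H3K4me1 intervals that overlapped the window were counted. ChIP-seq was performed in SW1990, an established cell line from a human pancreatic cancer, in cells that carried either a negative control shRNA (NC) or an shRNA against the histone methyltransferase KMT2D (KMT2D-KD). The 7 samples were 1 library per condition for each of KMT2D, the transcription factor EBF2 and H3K4me1, and 1 input, whose condition the labels do not give. The study described its knockdown lines as stable, and the number of clones behind each line was not given in the sources used here. With 1 library per condition nothing could be tested against replicate spread, so differences are given as sizes, and intervals around them cover counting error only. An interval only in 1 condition is one that shared no base with an interval of the other condition's list.

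In the Hippo pathway a kinase cascade phosphorylates YAP (YAP1) and TAZ (encoded by WWTR1) and keeps them out of the nucleus. In the nucleus these coactivators do not bind DNA themselves. They act through the TEAD factors, which recognise a core of the letters GGAATG, mostly at enhancers and often together with AP-1. H3K4me1 is the monomethyl mark on lysine 4 of histone H3 that flanks active promoters and covers enhancers, and KMT2D is one of the enzymes that write it.

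The promoters are shown first, because several of the knockdown-only intervals described below lay beside them. The 250 bases before the 5′ end of the canonical transcript held GGAATG, on either strand, in 6 of the 9 genes for which it is given: YAP1, TEAD4, CCN1, CCN2, AMOTL2 and ANKRD1. Over all 20033 protein-coding genes the share was 9.87% (1977 genes). The 10 genes were picked by name as parts or targets of this pathway, so the higher share is a description and not a result of these data. CCN2 held 3 copies and ANKRD1 held 2. The AP-1 motif TGANTCA was found in 1 of the 9, ANKRD1, against 4.74% of all genes, and the longer TEAD motif TGGAATGT was found in none, against 0.599%. A match is a description of letters and was not tested for binding. Of the 6 windows, the 5 that overlapped no annotated untranslated region are printed, 5′ to 3′ on the strand of the gene in build GRCh38 (hg38), with GGAATG, its reverse complement and TGANTCA in capitals.
The window of CCN2 is chr6:131951373-131951622 on the minus strand, that of ANKRD1 chr10:90921088-90921337 on the minus strand, and that of CCN1 chr1:85580511-85580760 on the plus strand.
CCN2: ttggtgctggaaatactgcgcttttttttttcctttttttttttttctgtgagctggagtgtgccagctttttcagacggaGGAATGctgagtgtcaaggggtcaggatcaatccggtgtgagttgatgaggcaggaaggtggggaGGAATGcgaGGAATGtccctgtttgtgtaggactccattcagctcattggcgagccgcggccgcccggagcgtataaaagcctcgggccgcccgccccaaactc
ANKRD1: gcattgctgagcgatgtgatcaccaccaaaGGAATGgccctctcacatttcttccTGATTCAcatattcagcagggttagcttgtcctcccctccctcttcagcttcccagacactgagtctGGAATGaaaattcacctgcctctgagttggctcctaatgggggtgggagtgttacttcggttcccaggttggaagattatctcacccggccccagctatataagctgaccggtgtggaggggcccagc
CCN1: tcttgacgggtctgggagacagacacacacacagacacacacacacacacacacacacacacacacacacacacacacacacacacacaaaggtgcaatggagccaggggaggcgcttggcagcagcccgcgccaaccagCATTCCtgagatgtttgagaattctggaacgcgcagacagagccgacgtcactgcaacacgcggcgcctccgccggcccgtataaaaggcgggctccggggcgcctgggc
The window of AMOTL2 is chr3:134374448-134374697 on the minus strand, and that of YAP1 chr11:102110197-102110446 on the plus strand.
AMOTL2: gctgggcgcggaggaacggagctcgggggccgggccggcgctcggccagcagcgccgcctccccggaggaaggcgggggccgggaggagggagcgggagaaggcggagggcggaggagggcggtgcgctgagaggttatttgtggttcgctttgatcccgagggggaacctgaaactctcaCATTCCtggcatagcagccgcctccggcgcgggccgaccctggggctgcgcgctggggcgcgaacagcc
YAP1: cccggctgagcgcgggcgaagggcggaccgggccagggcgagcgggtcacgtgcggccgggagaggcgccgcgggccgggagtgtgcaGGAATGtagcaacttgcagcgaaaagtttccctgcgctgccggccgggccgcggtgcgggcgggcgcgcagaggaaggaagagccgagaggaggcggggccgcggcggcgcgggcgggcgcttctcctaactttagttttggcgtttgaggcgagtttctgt

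All 10 genes had more bases under H3K4me1 intervals in the knockdown library than in that of NC, and so did 87.6% of the 17338 protein-coding genes with an interval in either list. The direction was thus the common one in these libraries. TEAD4, CCN2 and TEAD3 were at least 2-fold higher in KMT2D-KD, which makes 3 of 10 genes against 46.7% of all genes. None of the 10 was at least 2-fold higher in NC, against 4.01% of all genes. The number of intervals was higher in KMT2D-KD for 9 of the 10, all but AMOTL2, against 78.4% of all genes.

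Over the 10 windows NC had 232 intervals and KMT2D-KD had 269, which gives a log2 ratio of 0.21 (95% interval -0.05 to 0.47). The whole lists held 64843 and 92135 intervals, a log2 ratio of 0.51 (0.49 to 0.52). The difference over the 10 windows was therefore smaller than that of the lists, and its own interval included 0. The covered bases differed less in these windows too, with 147375 in NC and 187926 in KMT2D-KD (log2 ratio 0.35), against a log2 ratio of 0.62 for the whole lists. This ratio also varied by chromosome. It was 0.44 on chromosome 11 (YAP1, TEAD1), 0.50 on 3 (WWTR1, AMOTL2), 0.51 on 10 (ANKRD1) and 0.54 on 12 (TEAD4). On chromosome 1 (CCN1) it was 0.55, on 6 (TEAD3, CCN2) 0.76 and on 19 (AXL) 1.23. The totals over the 10 windows were not adjusted for chromosome. TEAD1 alone supplied 78 of the NC intervals, and without it the log2 ratio of covered bases was 0.45. The 5 genes of the transcription machinery had 108036 covered bases in NC and 125836 in KMT2D-KD (log2 ratio 0.22), and the 5 targets had 39339 and 62090 (log2 ratio 0.66). Pooled over the 5 targets, the intervals differed more in width than in number. The targets had 81 NC intervals and 92 KMT2D-KD intervals, with 486 and 675 bases per interval on average and median widths of 384 and 501.5 bases. AMOTL2 supplied 41 of these NC intervals and only 38 of the KMT2D-KD ones. The pooled pattern rests on AMOTL2 and does not hold for each target. By gene, median width differed more than number in CCN1, ANKRD1 and AMOTL2. Number differed more in CCN2 (4 and 11 intervals, median widths 382.5 and 461 bases) and AXL (12 and 15 intervals, 267.5 and 244 bases). The machinery genes had median widths of 448 and 449 bases.

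**Figure D1:**
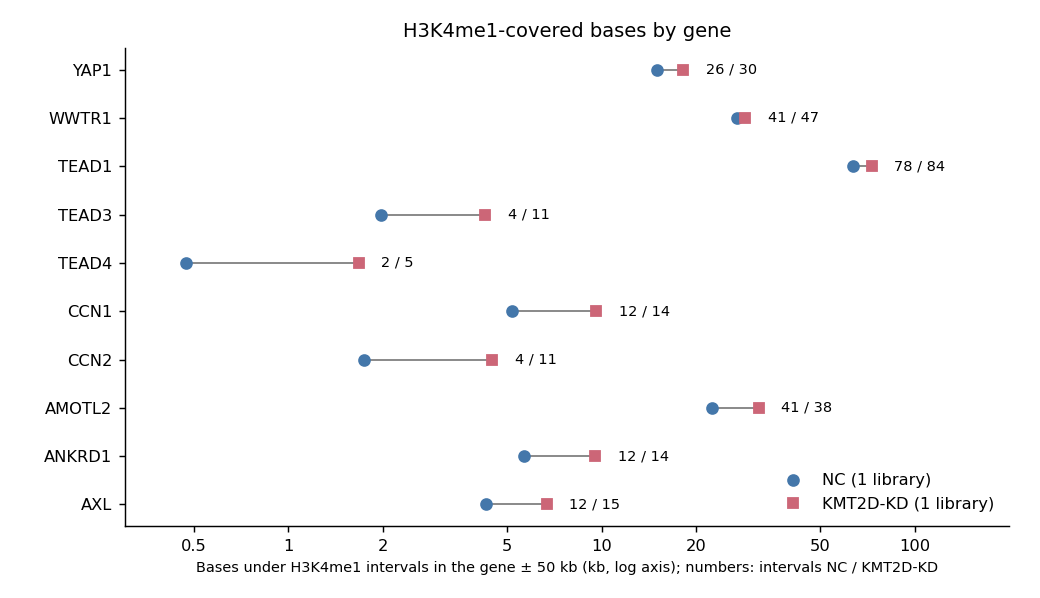
Bases under H3K4me1 intervals (kb, log axis) in the window of each gene, in the NC library (circles) and the KMT2D-KD library (squares), with the number of intervals in NC / KMT2D-KD printed at the right. Each square lies to the right of its circle, from TEAD4 with 470 and 1679 bases to TEAD1 with 63401 and 72879, and the gap is widest for TEAD4 and CCN2.

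The recovered depth of the H3K4me1 libraries was similar, with 9.89 fragments per 1000 bases in NC and 9.29 in KMT2D-KD, so the longer KMT2D-KD list came from the slightly shallower library (ratio 0.940). Intervals are described here by their fold enrichment over the peak caller's background at the summit and by its −log10 q. The number of ChIP fragments over the summit is also given, worked out from the fold enrichment and the p-value. The background recovered with it had a median of 1.13 times the genome mean in NC and 1.08 in KMT2D-KD. Its lower quartile was 1 in both, so for many intervals it was the lowest value of the list and not a local input level. Of the KMT2D lists, that of NC had 238 intervals and that of KMT2D-KD had 318; the EBF2 lists had 293 and 311. None of these 4 lists had an interval in any of the 10 windows. The lists were short, and the share of all protein-coding genes without such an interval was not counted. The absence can thus not be read as a trait of these 10 genes. Interval lists give no level of KMT2D, so the knockdown itself was not checked here. The paper verified it by qPCR and Western blot. From ChIP-seq the paper also reported lower KMT2D, H3K4me1 and EBF2 signal around gene starts and promoters in the knockdown cells. It stated that its CUT&Tag data gave the same result. By ChIP-qPCR it reported a loss of the same signals at the promoter of the gene KLLN. The H3K4me1 interval counts beside 5′ ends, given below, were higher in KMT2D-KD. The lists do not hold the read signal over promoters, so the paper's reading was not tested.

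The 10 genes differed widely in how much of their surroundings carried the mark. AMOTL2 and TEAD1 were among the most densely marked windows of all genes. In NC the intervals covered 18.7% of the AMOTL2 window and 17.1% of the TEAD1 window, more than in 99.9% of protein-coding genes in both cases. In KMT2D-KD they covered 26.4% and 19.7%. The median over the genes with an interval was 0.682% in NC and 1.40% in KMT2D-KD. In NC WWTR1 followed with 8.50% and YAP1 with 6.74%. In KMT2D-KD CCN1 came next with 9.26%, then WWTR1 with 9.01%, ANKRD1 with 8.75% and YAP1 with 8.19%. TEAD4 was the least marked, with 0.259% and 0.926%, more than 34.0% and 40.7% of genes.

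Dense windows had smaller ratios in the whole list as well. Among the 306 genes with a mean over both lists of at least 20 kb under intervals, the median log2 ratio was 0.48 and 4.25% were at least 2-fold higher in KMT2D-KD. WWTR1, TEAD1 and AMOTL2 fell in this class, with log2 ratios of 0.08, 0.20 and 0.50. In the class of 5 to 20 kb (3659 genes, median 0.68, 25.6% at least 2-fold higher) were YAP1, CCN1, ANKRD1 and AXL, with 0.28, 0.89, 0.76 and 0.65. In the class of 1 to 5 kb (8061 genes, median 0.95, 47.7%) were TEAD3, TEAD4 and CCN2, with 1.11, 1.84 and 1.36. Read against their own class, YAP1, WWTR1 and TEAD1 were thus below its lower quartile. This was 0.31 for the class of at least 20 kb and 0.39 for that of 5 to 20 kb. TEAD4 was above the upper quartile of its class. The classes were set after the values were seen.

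**Figure D2:**
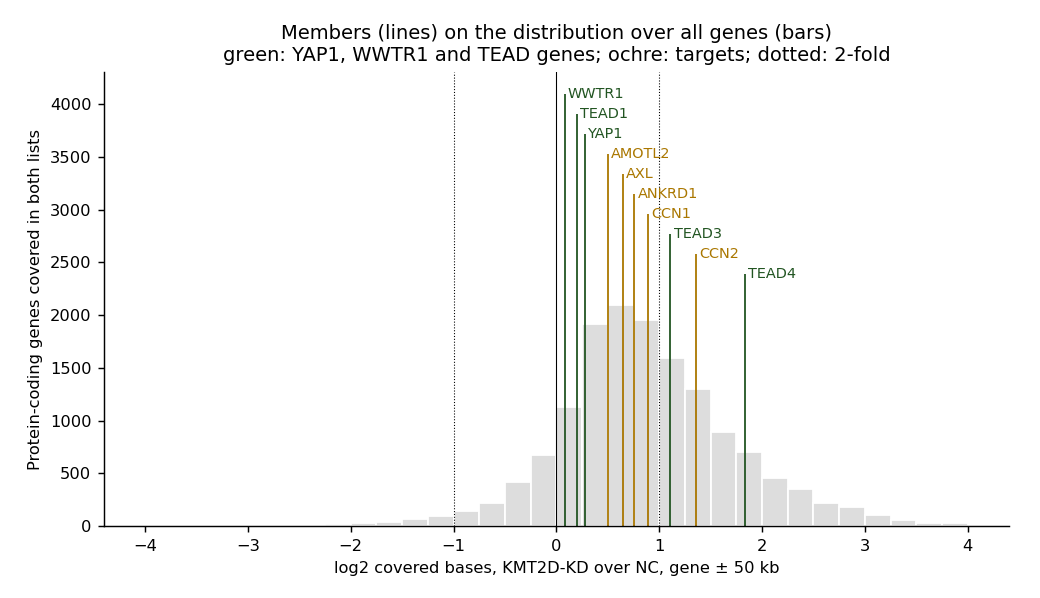
Number of protein-coding genes (bars) by the log2 ratio of covered bases, KMT2D-KD over NC, among the 14764 genes with an interval in both lists; the lines mark the 10 genes. Of the 10 lines, 6 stand left of the median of all genes (0.81), and only TEAD3, CCN2 and TEAD4 lie past the dotted 2-fold line at 1.

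YAP1, the coactivator that gives this arm of the pathway its name, lies at chr11:102110447-102233424 on the plus strand. Its window had 26 NC intervals and 30 KMT2D-KD intervals, which covered 15024 and 18253 bases (1.21-fold). Introns held 22 of the NC intervals and 23 of the KMT2D-KD intervals, and outside the gene there were 2 upstream intervals in each list and 2 and 4 downstream ones. Only 3 intervals were found in NC alone and 8 in KMT2D-KD alone. The highest interval of NC, by −log10 q, was 2020 bases of intron 2 (fold enrichment 6.68, −log10 q 10.6). In KMT2D-KD its region had a fold enrichment of 5.90 (22 fragments against 23 in NC). The highest interval of KMT2D-KD was 1167 bases of intron 3 centred 60329 bases from the 5′ end (fold enrichment 8.28, −log10 q 14.7). At this intron 3 site 25 fragments covered the summit in KMT2D-KD and 16 in NC. Their counting intervals overlapped (16.2 to 36.9 and 9.15 to 26.0). A region downstream of the gene had the largest YAP1 difference, with a fold enrichment of 3.30 in NC and 6.67 in KMT2D-KD. The nearest coding 5′ end to that region is that of BIRC3, outside the window. CFAP300 also lies in the YAP1 window.

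WWTR1, which encodes TAZ, had the intervals that coincided least between the libraries among the densely marked genes. It lies at chr3:149517235-149736714 on the minus strand, and 17 of its 41 NC intervals and 24 of its 47 KMT2D-KD intervals were found in 1 condition only. The covered bases were close, at 27169 and 28771 (1.06-fold), a ratio that only 13.6% of genes fell below. The highest interval lay outside the gene in both lists. In NC it was 936 bases with its summit 47669 bases upstream (fold enrichment 8.92, −log10 q 15.5), where KMT2D-KD had 6.42. In KMT2D-KD the highest interval was 4011 bases wide and lay downstream of the gene (fold enrichment 9.64, −log10 q 18.4), where NC had 7.26. This stretch was 1 interval in KMT2D-KD and 2 in NC, part of a shared region of 4220 bases. The window also holds TM4SF4, COMMD2 and ANKUB1, and WWTR1 had the nearest coding 5′ end for only 9 of the 41 NC intervals and 14 of the 47 KMT2D-KD intervals.

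TEAD1, a DNA-binding partner of YAP and TAZ, had the most covered bases of the 10 genes. It lies at chr11:12674421-12944737 on the plus strand with no other protein-coding gene in its window, and its window had 78 NC intervals and 84 KMT2D-KD intervals. These covered 63401 and 72879 bases (1.15-fold), and 60 of the NC intervals were overlapped in KMT2D-KD. Introns held 68 and 72 of them. The widest shared region of the 10 genes lay in TEAD1, at chr11:12797205-12802667. It was 1 interval of 5463 bases in KMT2D-KD and 3 intervals in NC, with a fold enrichment of 12.1 in KMT2D-KD (32 fragments at the summit) and 6.40 in NC (18 fragments). The counting intervals of 21.9 to 45.2 and 10.7 to 28.4 fragments overlapped. The highest TEAD1 interval was chr11:12701403-12703992 of KMT2D-KD, in intron 2, where the fold enrichment reached 12.3 and the −log10 q 25.1, above 99.8% of the KMT2D-KD list. In NC the same region had a fold enrichment of 7.27 (20 fragments against 32). The highest NC interval of TEAD1 lay elsewhere, 48018 bases upstream of the 5′ end, and differed in the other direction. Its region had a fold enrichment of 7.92 in NC and 6.60 in KMT2D-KD (25 and 19 fragments).

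The summit of this intron 2 interval was the only one that met the rule for printing among the highest intervals of the 10 genes, since no other held GGAATG or TGANTCA in the 200 bases around it. Its 200 bases, chr11:12702980-12703179 on the plus strand, hold 1 match to the TEAD core on the opposite strand, in capitals.
TEAD1 intron 2: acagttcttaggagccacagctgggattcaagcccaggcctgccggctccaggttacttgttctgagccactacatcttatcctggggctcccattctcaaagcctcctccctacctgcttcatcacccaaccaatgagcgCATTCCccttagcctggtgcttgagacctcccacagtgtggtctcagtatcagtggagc
Over all intervals of the 10 genes, 13.4% of the NC summits (31 of 232, exact 95% interval 9.26 to 18.4%) and 14.1% of the KMT2D-KD summits (38 of 269, 10.2 to 18.9%) had GGAATG within these 200 bases. The shares over the whole lists were 12.4% and 12.1%, inside those intervals. TGANTCA was found at 6.90% and 7.81% of the summits of the 10 genes, against 8.06% and 7.78% of all summits. Both motifs were thus about as frequent at the summits of these genes as at H3K4me1 summits in general.

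TEAD1 also had the highest knockdown-only interval of the 10 genes. It was the 348 bases of chr11:12725073-12725420 in intron 2, with 30 fragments (fold enrichment 7.96, −log10 q 16.4). Just after it came a region marked in both conditions, chr11:12725531-12726838, with 25 fragments at the summit in each library. The highest TEAD1 interval found in NC alone was 327 bases at 4150 bases upstream of the 5′ end (fold enrichment 5.03, −log10 q 6.33). Intervals in 1 condition only were in general the weak and narrow ones. Over the 10 genes, the 106 knockdown-only intervals had a median −log10 q of 2.97 and a median width of 259 bases, against 5.77 and 724 bases for the 163 that overlapped an NC interval. The 56 NC-only intervals had 3.04 and 280.5 bases, against 4.46 and 513.5 bases for the 176 overlapped ones.

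TEAD3 and TEAD4, the other 2 DNA-binding partners, were sparsely marked and had the largest ratios of the machinery genes. TEAD3 lies at chr6:35473597-35497079 on the minus strand, and its window also holds PPARD, FANCE, RPL10A and TULP1. TEAD3 had the nearest coding 5′ end for 2 of the 4 NC intervals and 6 of the 11 KMT2D-KD intervals. The intervals of the 2 lists covered 1972 and 4254 bases (2.16-fold). This ratio was under 2-fold with equal numbers of top intervals (log2 0.77) and at a −log10 q of at least 5 (log2 0.25). It turned with a fold enrichment of at least 5, where 1526 bases were left in NC and 856 in KMT2D-KD (log2 -0.83). TEAD4, at chr12:2959330-3040676 on the plus strand, had 2 and 5, covering 470 and 1679 bases (3.57-fold). With so few intervals the log2 ratios of their number, 1.46 and 1.32, had wide counting intervals (-0.30 to 3.57 and -1.29 to 4.71).

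The KMT2D-KD intervals of TEAD3 included 4 within 5 kb of its 5′ end, where NC had 1. The highest TEAD3 interval of KMT2D-KD was 624 bases of intron 1 in KMT2D-KD alone, chr6:35488015-35488638, with 17 fragments (fold enrichment 6.83, −log10 q 9.23). It lay next to a shared region whose fold enrichment was 5.26 in NC and 4.69 in KMT2D-KD, although the fragments were 14 in NC and 20 in KMT2D-KD. For TEAD4 all 5 KMT2D-KD intervals lay within 5 kb of the 5′ end, 3 of them upstream in KMT2D-KD alone with 7 to 9 fragments each. Both TEAD4 intervals of NC had 9 fragments at the summit. TULP3 and TSPAN9 also lie in this window, but TEAD4 had the nearest coding 5′ end for every interval of both lists.

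CCN1 and CCN2 encode the secreted matricellular proteins CYR61 and CTGF and are widely used readouts of YAP activity. Both genes are short, and for both the KMT2D-KD list had intervals close to the 5′ end that the NC list lacked. CCN1, at chr1:85580761-85584589 on the plus strand, had 12 NC intervals and 14 KMT2D-KD intervals, covering 5178 and 9618 bases (1.86-fold). Its nearest NC interval was 6852 bases from the 5′ end, and the nearest KMT2D-KD interval was 1188 bases from it. The latter was the first of 4 upstream intervals of KMT2D-KD alone, centred 1353, 2469, 3145 and 4766 bases before the 5′ end, with 14, 10, 11 and 8 fragments. The fold enrichment at 1353 bases was 4.52 (−log10 q 4.94). DDAH1 also lies in this window, and its 5′ end is the nearest protein-coding one to each of these 4 intervals, so that they cannot be assigned to CCN1 rather than to DDAH1. Farther upstream, a region of 2295 bases was 1 interval in KMT2D-KD (fold enrichment 6.45) and 2 in NC (3.75).

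Of the 7 regions that CCN1 had in both conditions, 6 had the higher fold enrichment in KMT2D-KD. The highest CCN1 interval of KMT2D-KD lay 26988 bases downstream of the 5′ end, with 28 fragments (fold enrichment 8.74, −log10 q 16.9). The same region had 5.73 and 16 fragments in NC. The highest NC interval, 1075 bases just before it, was the exception, with 6.98 in NC and 5.39 in KMT2D-KD.

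CCN2, at chr6:131948176-131951372 on the minus strand, had 4 NC intervals and 11 KMT2D-KD intervals, covering 1749 and 4482 bases (2.56-fold). This ratio was under 2-fold with 100 kb either side (log2 0.68) and with equal numbers of top intervals (log2 0.89). No other protein-coding gene lies in its window. Upstream of the 5′ end KMT2D-KD had 9 intervals and NC had 3. Within 5 kb there were 4 in KMT2D-KD, centred 776, 2374, 2997 and 3830 bases before the 5′ end, with 10, 8, 11 and 12 fragments. Only the one at 2374 was met by an NC interval, which had 10 fragments. The interval at 776 bases, chr6:131952036-131952285 (fold enrichment 4.17, −log10 q 3.49), lay 664 bases from the 5′ end, beyond the 3 GGAATG copies of the printed sequence. The highest interval of either list was in KMT2D-KD alone, 13521 bases downstream of the 5′ end (fold enrichment 5.69, −log10 q 6.59, 14 fragments). None of the CCN2 intervals exceeded a −log10 q of 6.59, and those in 1 condition only had 9 to 14 fragments at the summit.

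ANKRD1 encodes an ankyrin-repeat protein of muscle and nucleus that is a strong YAP target in many cells. Its 5′ end lay inside an interval in KMT2D-KD and outside one in NC. The gene lies at chr10:90912096-90921087 on the minus strand, and its window had 12 NC intervals and 14 KMT2D-KD intervals, covering 5639 and 9541 bases (1.69-fold). RPP30 also lies in this window, and ANKRD1 had the nearest coding 5′ end for 9 of the NC intervals and 11 of the KMT2D-KD ones. In KMT2D-KD an interval of 1137 bases, chr10:90920118-90921254, ran over the 5′ end, where NC had an interval of 323 bases in intron 1. The fold enrichment was 6.83 in KMT2D-KD (17 fragments) and 3.86 in NC (10 fragments). Another interval, chr10:90921463-90922178, centred 479 bases upstream, was found in KMT2D-KD alone (fold enrichment 6.45, −log10 q 8.32, 16 fragments). One more lay 1875 bases upstream, also in KMT2D-KD alone, with 12 fragments. The printed ANKRD1 window, with 2 GGAATG and 1 TGANTCA, is partly inside the first of these. The highest ANKRD1 interval of both lists was farther upstream and had closer counts. Its summit lay 8840 bases upstream in NC and 8938 bases upstream in the knockdown, with 24 and 26 fragments (fold enrichments 7.21 and 9.86).

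AMOTL2, an angiomotin-family scaffold that binds YAP, was the only gene with fewer intervals in KMT2D-KD, 38 against 41. Its covered bases were nevertheless higher, 31761 against 22505 (1.41-fold), and the median width was 681.5 bases in KMT2D-KD and 431 in NC. The gene lies at chr3:134355347-134375479 on the minus strand, with no other protein-coding gene in the window. Of its NC intervals 37 of 41 were overlapped in KMT2D-KD. In 8 of its 27 shared regions NC had more intervals than KMT2D-KD (29.6%), and in 1 it had fewer. Over all shared regions of the lists NC had more intervals in 9.72% and fewer in 5.16%. AMOTL2 thus had neighbouring NC intervals that were 1 interval in KMT2D-KD. The largest such difference was the intronic region chr3:134367960-134370640, which was 3 NC intervals and 1 KMT2D-KD interval, with fold enrichments of 3.92 and 8.95 and 15 and 26 fragments.

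The highest H3K4me1 interval of all 10 genes lay in the AMOTL2 window, downstream of the gene, at chr3:134309362-134312103. It was 2742 bases wide in KMT2D-KD, with 37 fragments at the summit (fold enrichment 13.4, −log10 q 30.2), and 99.9% of the KMT2D-KD list was lower. In NC the highest interval of the gene was in the same place, with 29 fragments (fold enrichment 9.72, −log10 q 18.5). The nearest protein-coding 5′ end to it is that of RYK, outside the window. The counting intervals (26.0 to 51.0 and 19.4 to 41.6 fragments) overlapped. Not all AMOTL2 regions differed in this direction, since 14 of 27 had the higher fold enrichment in KMT2D-KD and 13 in NC.

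AXL encodes a receptor tyrosine kinase. It lies at chr19:41219223-41261766 on the plus strand, and its window had 12 NC intervals and 15 KMT2D-KD intervals, covering 4268 and 6688 bases (1.57-fold). The log2 ratio of covered bases, 0.65, was below the 1.23 of chromosome 19 as a whole, the chromosome with the largest excess among those that hold the 10 genes. The highest AXL interval was in intron 4 in both lists, with fold enrichments of 6.67 in NC and 6.20 in KMT2D-KD and 18 and 16 fragments. The 6 shared regions of AXL were evenly divided, with 3 higher in each condition. The window also holds CYP2S1, HNRNPUL1, TGFB1 and CCDC97.

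**Figure D3:**
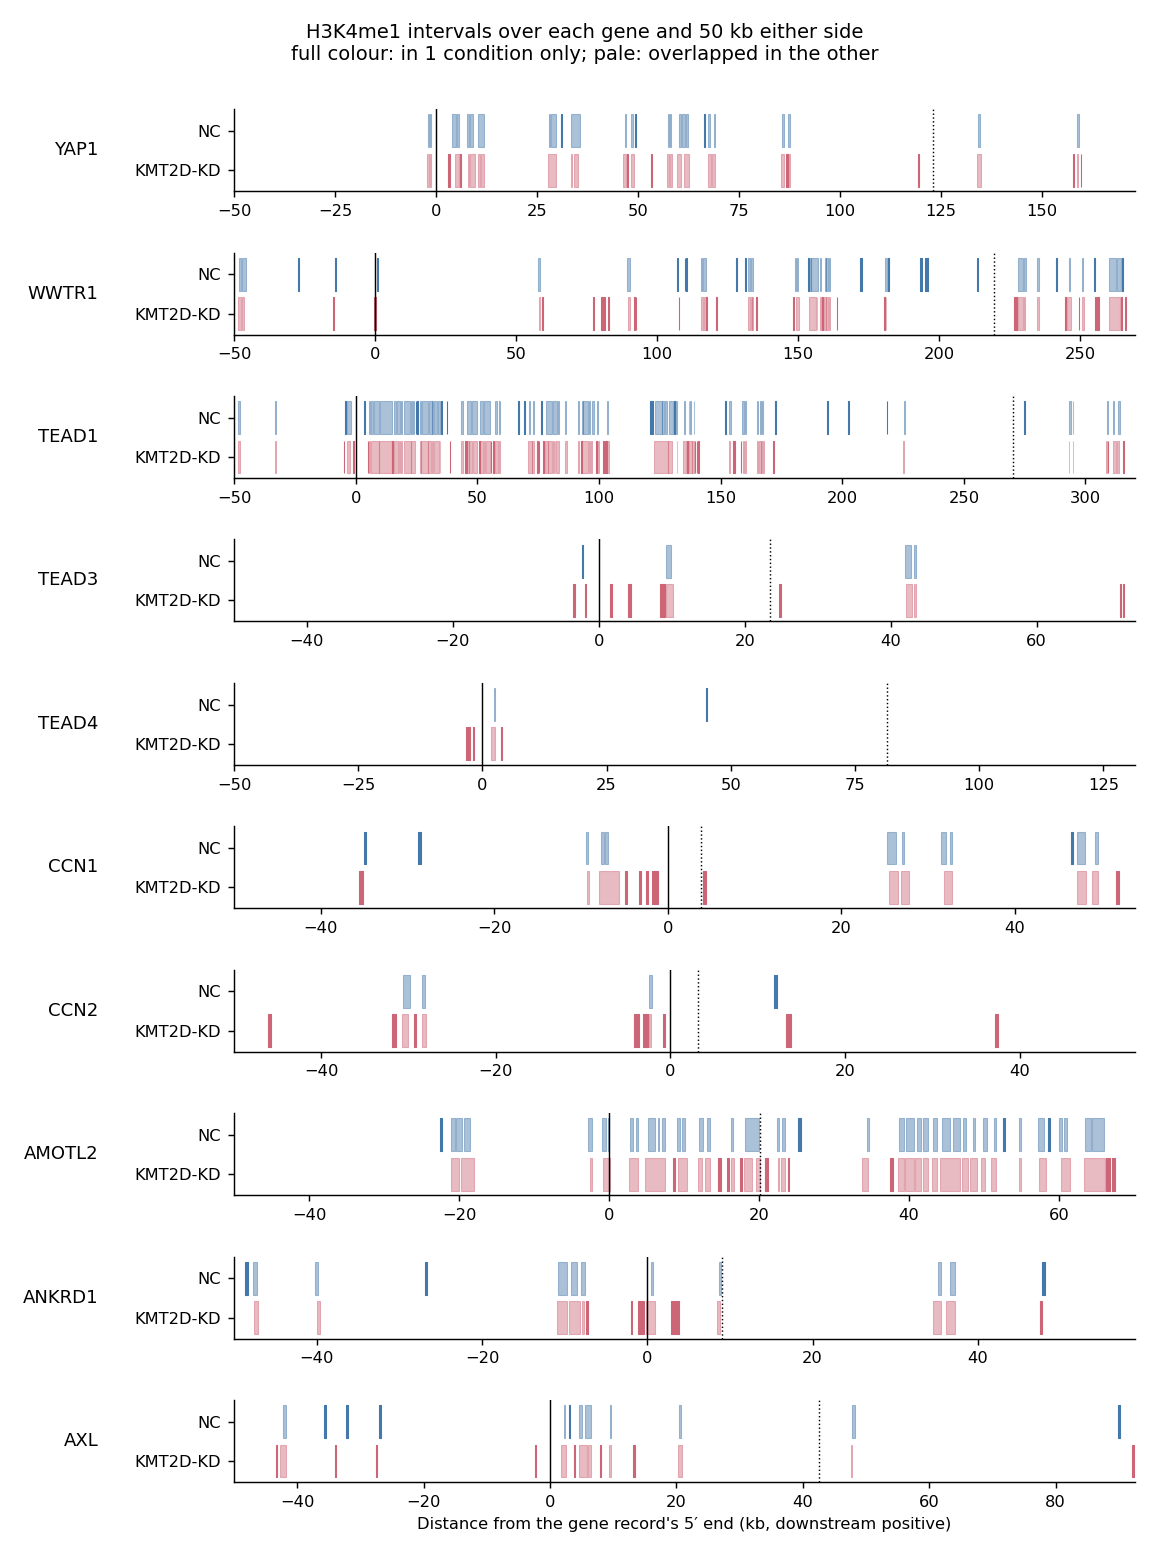
H3K4me1 intervals of NC (blue) and KMT2D-KD (red) over each gene and 50 kb either side, by distance from the gene record's 5′ end in kb (solid line at 0, dotted line at the 3′ end); full colour marks intervals in 1 condition only, pale colour those overlapped in the other. TEAD1 and AMOTL2 are filled across long stretches in both conditions, TEAD4 holds 2 and 5 intervals, and the full-colour red bars stand just before the 5′ ends of CCN1, CCN2 and ANKRD1.

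Promoter-proximal intervals were then counted over the 10 genes. An interval lay within 1000 bases of the gene record's 5′ end in 3 genes in NC (WWTR1, AMOTL2 and ANKRD1), against 6.43% of all protein-coding genes. In KMT2D-KD it did so in 5, with TEAD1 and CCN2 added, against 11.9% of all genes. The TEAD1 interval was 211 bases centred 965 bases upstream, with 16 fragments (fold enrichment 5.39, −log10 q 6.78). The 5′ end of the gene record and that of the canonical transcript are 78689 bases apart in WWTR1 and 1032 in AMOTL2. Counted from the canonical transcript, the genes were 2 in NC (AMOTL2 and ANKRD1; 5.71% of all genes) and 4 in KMT2D-KD (11.2%), since WWTR1 dropped out. For WWTR1 the interval nearest to the canonical 5′ end was 10807 bases away in NC, against 1096 in KMT2D-KD.

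For each of the 10 genes the nearest interval was as close to the gene record's 5′ end in KMT2D-KD as in NC or closer, which held for 71.5% of all protein-coding genes. The distances were 1355 bases in NC and 1309 in KMT2D-KD for YAP1, 2118 and 1493 for TEAD3, 2350 and 1746 for TEAD4, and 2164 and 1774 for AXL. At CCN1 the gap between the intervals on either side of the 5′ end was 32084 bases wide in NC, against 5197 in KMT2D-KD. At TEAD4 it was 82879 and 3562 bases, at AXL 28832 and 3935 bases, and at TEAD3 11316 and 3246 bases. It differed less at YAP1, with 5223 and 4330 bases, and at CCN2, with 13972 and 13884. At TEAD1 the order was the other way, with 5441 and 5803 bases. The width of this gap was not measured over all genes.

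**Figure D4:**
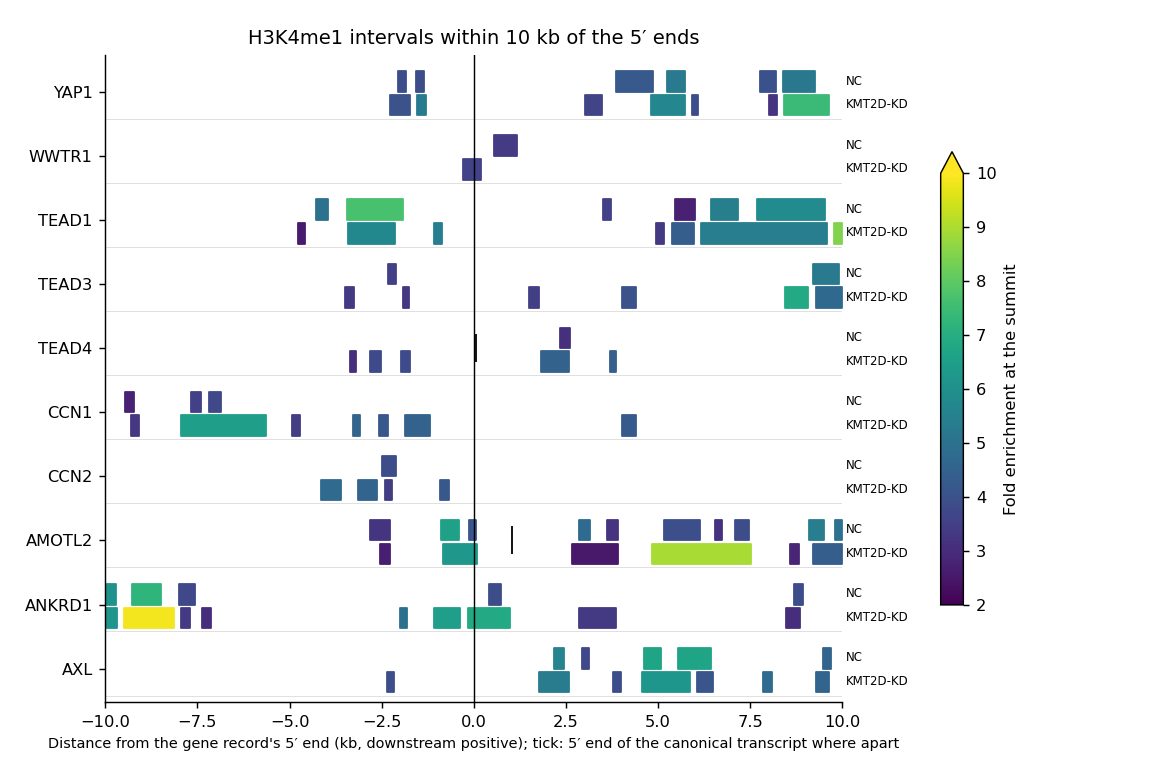
H3K4me1 intervals within 10 kb of the gene record's 5′ end (kb, downstream positive), NC above KMT2D-KD for each gene, coloured by fold enrichment at the summit; short ticks mark the canonical transcript's 5′ end where it is apart. KMT2D-KD intervals stand closer to the 5′ ends of CCN1, CCN2, ANKRD1 and TEAD4 than the NC intervals, and the ANKRD1 5′ end itself is covered in KMT2D-KD.

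Where both conditions had the mark, its fold enrichment differed little in general. The 10 genes held 146 regions with an interval in both lists, and 89 of them (61.0%) had the higher fold enrichment in KMT2D-KD, against 66.0% of the 39989 such regions in the lists. The median log2 ratio was 0.12 (quartiles -0.17 and 0.41), and 0.17 over all regions. It ranged from -0.93, in intron 1 of AMOTL2, to 1.19, in the AMOTL2 region of 3 merged intervals named above. At the lowest ratio the fragments were close, 15 in NC and 16 in KMT2D-KD. The background there was 1.27 times the genome mean in NC and 3.54 times in KMT2D-KD. By gene, the median was highest for TEAD4 (0.53, 1 region) and CCN1 (0.48, 7 regions) and lowest for TEAD3 (-0.16, 3 regions), while TEAD1, with 50 regions, had 0.17. Of the NC intervals 75.9% (exact 95% interval 69.8 to 81.2%) were overlapped in KMT2D-KD, against 69.7% of the whole list. Of the KMT2D-KD intervals 60.6% (54.5 to 66.5%) were overlapped in NC, against 46.6% of the whole list, which is below that interval. Intervals of 1 gene share a library and often a domain, and the binomial intervals do not cover this.

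**Figure D5:**
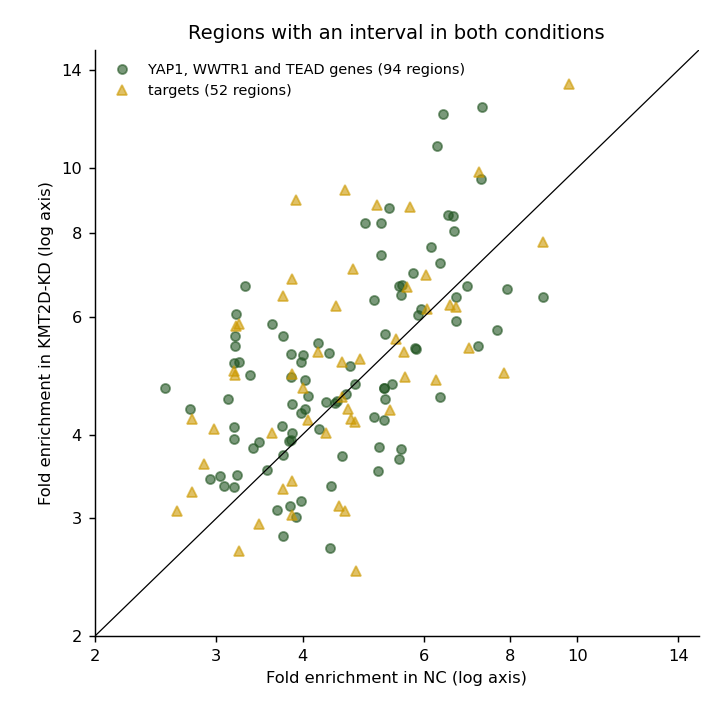
Fold enrichment at the summit in NC (x) and KMT2D-KD (y), both on log axes, in the 146 regions with an interval in both conditions; circles are regions of YAP1, WWTR1 and the TEAD genes, triangles those of the targets, and the line marks equal values. The points lie on both sides of the line, 89 above and 57 below, and the highest one is the AMOTL2 region with 9.72 and 13.4.

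The rest of the Hippo pathway was examined with 3 lists of genes in the same windows. Of 16 kinases and adaptors that act upstream of YAP, 15 had an interval in either list, 6 were at least 2-fold higher in KMT2D-KD and none was so in NC, against 46.7% and 4.01% of all genes. The 6 of 15 were thus near the general share. The median log2 ratio was 0.38, against 0.81 over all genes. The largest ratios were those of the TAO kinases, which activate the MST kinases: TAOK2 had 1377 and 6295 covered bases (4.57-fold), TAOK3 had 2515 and 9299 (3.70-fold) and TAOK1 had 4468 and 12454 (2.79-fold). LATS2, a kinase that phosphorylates YAP, had 3396 and 7189 (2.12-fold). LATS1, its paralog, and WWC2, an adaptor, had 2 intervals each in KMT2D-KD and none in NC, and AMOT had none in either. STK4, the MST1 kinase, had 18854 and 21435 covered bases, a ratio of 1.14.

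Among TEAD2 and the Vestigial-like cofactors, which compete with YAP for TEAD or modify it, 3 of 5 genes had an interval. VGLL2 had 1 interval in KMT2D-KD alone, VGLL3 and VGLL4 were below 2-fold, and TEAD2 and VGLL1 had none, with a median log2 ratio of 0.42. All 16 further YAP/TAZ targets had intervals in both lists and none was past 2-fold in either direction, against 46.7% of all genes at least 2-fold higher in KMT2D-KD. Of these, 13 had more covered bases in KMT2D-KD, against 87.6% of all genes, and the median log2 ratio was 0.36, against 0.81. They were well covered for the most part, with 5 of the 16 in the class of at least 20 kb, 7 in that of 5 to 20 kb and 4 in that of 1 to 5 kb, in which 4.25%, 25.6% and 47.7% of all genes were at least 2-fold higher.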

How the data were processed

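The deposited values were lists of intervals in the narrowPeak layout of 10 columns, 1 for each of 6 ChIP libraries of SW1990 cells called against the SW1990 input. The authors filtered reads with in-house perl scripts; the submitters' processing notes name BWA, MACS2, HOMER and hg38, and versions and settings were not given in the sources used here. Beside each interval the authors deposited its fold enrichment over the caller's background, a ratio taken at the summit, and a −log10 p and −log10 q.

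Windows were gene records of GENCODE release 44 (GRCh38.p14) with 50 kb either side, and no interval passed the end of a chromosome of that build. Interval bases inside a window were summed, and overlap needed 1 base. Whole fragments at each summit were recovered from the fold enrichment and p (64839 of 64843 intervals in NC and 92128 of 92135 in KMT2D-KD, to within 0.001 in −log10 p). Depth came from the lowest background and the narrowest interval. Intervals on shares are exact binomial (Clopper-Pearson, 95%) and on fragments exact Poisson, and both cover counting error only. Motifs were searched on both strands. The upstream sequence of TEAD1 is not reported here. No test was run, since each condition had 1 library. The work used Python 3.11.15, pandas 2.3.3, numpy 2.4.6, scipy 1.17.1 and matplotlib 3.10.9. The functions were tested on simulated data.

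The 10 genes, the 3 pathway lists and the rules were chosen with earlier results of these data known. All 10 genes were named. Of each list, the 3 genes with the largest ratio past 2-fold in each direction, with at least 5000 covered bases in 1 condition, and genes with intervals in 1 condition only were to be named. LATS2, STK4, VGLL3 and VGLL4, genes with no interval, the printed upstream sequences, the classes by covered bases and the counts from the canonical 5′ end were added after the values were seen. Alternatives were other flanks, thresholds, list lengths, merging and overlap rules.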

Additional observations from a re-analysis of the deposited data

How the results depend on the processing

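No paired analysis was possible because each condition had 1 library. Of 66 alternative values of the results over the 10 genes, 46 stayed within the counting interval or within 1.5 times the value given above, and 20 did not. With equal numbers of top intervals by −log10 q (64843 per list), the log2 ratio of interval number was -0.24 against 0 for the lists, the overlapped shares were 66.4% of NC and 70.1% of KMT2D-KD intervals, and 1 gene was at least 2-fold higher in KMT2D-KD, against 30.8% of all genes. That log2 ratio of number, which included 0 from the start, was also negative (-0.04) with intervals within 1000 bases merged. The ratio of covered bases stayed positive under every alternative (0.15 to 0.49). With 10 kb either side, 5 genes were at least 2-fold higher in KMT2D-KD, against 48.3% of all genes, and of TEAD2 and the Vestigial-like cofactors 0 were. With overlap of at least 50% of an interval the shares were 64.2% and 44.2%, and within 1000 bases they were 87.9% and 82.9%. Within 3000 bases of the 5′ end, 9 genes had an NC interval and 10 a KMT2D-KD interval, against 24.3% and 36.1% of all genes. At −log10 q of at least 5 there were 1 and 3 within 1000 bases, against 1.5% and 3.60%, and at the 5′ end of any transcript NC had 5, against 17.4%. At that −log10 q, 5 of the 16 further targets were past 2-fold, against 65.4% of all genes. GGAATG was at 28.4% and 30.1% of summits in 500 bases, and the longer motif at 0.862% and 1.12%. For single genes, 11 of 64 ratios differed by over 1.5 times and 6 could not be formed. TEAD3 turned with a fold enrichment of at least 5 (log2 -0.83), and WWTR1 was slightly negative under 4 alternatives. Regions without an interval were not measured, so low levels of the mark below the caller's threshold are unknown.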
